A study of Mus musculus with 6 samples.

Results

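The 7 genes that encode the Cip/Kip and Ink4 inhibitors of cyclin-dependent kinases and the 3 genes that encode the D-type cyclins were followed in brown adipocytes treated with 4CBA. They were chosen by gene symbol, 3 Cip/Kip inhibitors (Cdkn1a, Cdkn1b, Cdkn1c), 4 Ink4 inhibitors (Cdkn2a, Cdkn2b, Cdkn2c, Cdkn2d) and 3 D-type cyclins (Ccnd1, Ccnd2, Ccnd3), and are 10 of the 24537 genes with a value. RNA sequencing was performed on 6 libraries of an immortalized murine brown preadipocyte line that had been differentiated in culture into adipocytes. The 3 CTL libraries come from cells given vehicle, and the 3 4CBA libraries from cells given 4 mM 4-chlorobenzoic acid, an inhibitor of the coenzyme Q biosynthetic enzyme COQ2. The comparison asks how blocking coenzyme Q synthesis changes the transcriptome of these cells. The labels place treatment at day 4 of a differentiation of 6 days and give 48 h, whereas the methods of the study give 24 h, and which time the libraries hold was not settled. The labels also give 24 h for a refresh of the media, for all 6 libraries. A single cell line was used, neither the labels nor the methods say how it was immortalized, and the methods say that replicates were pooled to generate RNA. The p-values below therefore reflect how far these libraries vary among themselves, and that variation may be technical.

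Cyclin-dependent kinases drive a cell through its division cycle. D-type cyclins activate CDK4 and CDK6 in response to growth signals, and these kinases phosphorylate the retinoblastoma protein and so release E2F factors that turn on genes for DNA replication. Ink4 proteins bind CDK4 and CDK6 and keep D-type cyclins away from them, whereas Cip/Kip proteins bind many cyclin and kinase complexes, inhibiting those of CDK2 and also helping to assemble those of D-type cyclins. In adipocytes the exit from the cell cycle accompanies differentiation, and several of these proteins have roles in it.

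Values are RPKM, that is, reads scaled to exon length and to the depth of the library, so levels can be set side by side between genes. Log2 fold changes are 4CBA minus CTL on log2(RPKM + 1), which shrinks the change of weakly expressed genes, and folds are ratios of the mean RPKM of both groups. A call, higher or lower, needed a p under 0.05 in limma after Benjamini-Hochberg adjustment, and errors of log2 fold changes are standard errors. The test covered 12659 genes, those that reached an RPKM of 0.5 in 3 or more libraries, and all 10 inhibitor and cyclin genes were among them.

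All 10 genes were called, 2 higher (Cdkn1a and Ccnd2) and 8 lower, and in each of the 10 the libraries of both groups did not overlap. This has to be read against a comparison that moved most of the transcriptome: 68.4% of all genes tested were called, 38.4% higher and 30.0% lower, and 72.7% had groups that did not overlap. With libraries scaled to the same median that split turned to 31.2% higher and 37.1% lower, and of the 10 genes only Cdkn1a lost its call. The median log2 fold change was -0.57 over the 10 genes and 0.06 over all genes tested. The 10 genes differ more in the size of their changes than in the fact of a call. The median size of the log2 fold change was 0.80 among them against 0.36 over all genes, and 4 of the 10 changed by at least 1 on the log2 scale, as did 11.7% of all genes tested. These 4 were Cdkn1c, Cdkn2c, Cdkn2d and Ccnd2. Ccnd1, 2.12-fold lower in RPKM, fell short of 1 because this scale shrinks the changes of weakly expressed genes. The contrast with all genes was not matched for level of expression. The 10 genes were chosen with earlier results of these data known, so these contrasts with all genes may not be independent of that choice.

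**Figure D1:**
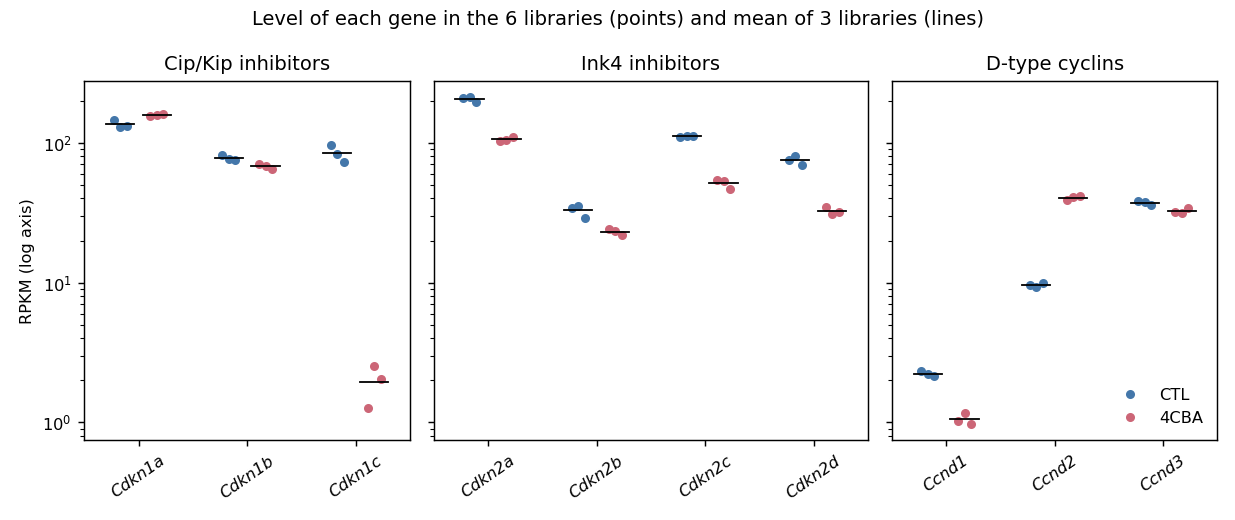
RPKM on a log axis of the 10 genes in each library, with CTL libraries in blue, 4CBA libraries in red and black lines at the mean of 3 libraries. Cdkn1c drops from between 73.4 and 96.6 to between 1.28 and 2.52, Ccnd2 goes from between 9.25 and 9.96 to between 38.7 and 42.0, and Cdkn1a, Cdkn1b and Ccnd3 shift by little more than the spread of the points.

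The sequence just before the start of some of these genes is shown first, since the 4 Ink4 genes fell together while the Cip/Kip genes moved apart. Windows of 250 bases before to 50 bases after each start were taken from RefSeq (build GRCm38.p6) for the 7 genes that matched, Cdkn1a, Cdkn1b, the 4 Ink4 genes and Ccnd3. Both strands were searched for an E2F motif (TTTCCCGC, TTTCGCGC, TTTGCCGC or TTTGGCGC), the cyclic AMP response element TGACGTCA, the composite C/EBP-ATF element TGATGNAAT, the GC box GGGCGG, and the p53 element, both as its 10-letter unit and as 2 adjoining units of 20 letters with at most 1 mismatch. The 250 bases before the upstream start of Cdkn1a (chr17:29090729-29090978, plus strand) are shown because they hold the 20-letter p53 element, in capitals. The windows of the Ink4 genes follow, with each searched motif in capitals: Cdkn2a at its upstream first exon (chr4:89294620-89294869, minus strand), Cdkn2b (chr4:89311033-89311282, minus strand), Cdkn2c (chr4:109666757-109667006, minus strand) and Cdkn2d (chr9:21291210-21291459, minus strand).
Cdkn1a: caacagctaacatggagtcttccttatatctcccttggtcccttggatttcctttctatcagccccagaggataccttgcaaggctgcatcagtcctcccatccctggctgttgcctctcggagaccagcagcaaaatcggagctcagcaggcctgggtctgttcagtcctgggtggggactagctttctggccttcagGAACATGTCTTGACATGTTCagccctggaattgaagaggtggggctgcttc
Cdkn2a: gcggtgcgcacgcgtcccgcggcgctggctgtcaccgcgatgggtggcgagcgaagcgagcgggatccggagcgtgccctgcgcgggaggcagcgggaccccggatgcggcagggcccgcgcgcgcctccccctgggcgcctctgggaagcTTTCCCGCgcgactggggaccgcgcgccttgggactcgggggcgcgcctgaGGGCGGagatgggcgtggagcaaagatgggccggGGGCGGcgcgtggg
Cdkn2b: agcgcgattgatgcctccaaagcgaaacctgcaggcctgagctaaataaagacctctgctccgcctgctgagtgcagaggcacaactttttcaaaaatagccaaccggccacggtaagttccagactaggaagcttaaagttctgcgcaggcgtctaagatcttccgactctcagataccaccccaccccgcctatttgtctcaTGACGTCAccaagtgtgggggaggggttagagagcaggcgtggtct
Cdkn2c: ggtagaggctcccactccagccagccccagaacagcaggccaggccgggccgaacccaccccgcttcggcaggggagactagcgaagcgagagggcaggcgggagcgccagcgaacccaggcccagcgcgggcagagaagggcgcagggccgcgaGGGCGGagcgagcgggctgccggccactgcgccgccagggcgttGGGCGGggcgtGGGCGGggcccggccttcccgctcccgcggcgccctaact
Cdkn2d: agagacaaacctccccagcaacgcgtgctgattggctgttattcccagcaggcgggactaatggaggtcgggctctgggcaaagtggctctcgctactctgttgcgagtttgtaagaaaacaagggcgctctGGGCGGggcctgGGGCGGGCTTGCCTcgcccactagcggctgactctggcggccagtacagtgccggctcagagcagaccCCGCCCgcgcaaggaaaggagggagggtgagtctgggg

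The element in Cdkn1a begins at position -51 from that start, and a p53 element of this kind was found in 0.0883% of the 32851 windows of all genes. The window at the downstream start of Cdkn1a (chr17:29093519-29093818, plus strand), not shown, held no p53 unit. Among the Ink4 windows, the E2F letters occur only in the upstream one of Cdkn2a, at position -99, and such letters are in 2.26% of all windows. That start is the one of Arf. The window at the downstream start of Cdkn2a (chr4:89282143-89282442, minus strand), not shown, held no E2F letters and 1 GC box, at position 23. The cyclic AMP response element occurs only in that of Cdkn2b, at position -46, and is in 1.79% of all windows. The other capitals in Cdkn2a and those in Cdkn2c are GC boxes, a motif found in 35.7% of all windows. Further GC boxes lie past the start, outside the bases shown, in each of the Ink4 genes. In Cdkn2d they are GC boxes and a single p53 unit that starts at position -102 and overlaps one of these boxes, and single p53 units are in 8.36% of all windows. None of the 11 windows of these 7 genes held the C/EBP-ATF composite, which is in 0.965% of all windows. These are matches of letters and say nothing of binding in these cells.

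Of the Cip/Kip genes, Cdkn1c all but disappeared, Cdkn1b fell slightly and Cdkn1a rose slightly. Cdkn1c (chr7:143458339-143461059, mm10) encodes p57, a nuclear inhibitor that is expressed from the maternal copy in mice and is usually found in cells that have left the cycle. Its RPKM was 96.6, 82.9 and 73.4 in CTL replicates 1, 2 and 3 and 1.28, 2.52 and 2.04 in 4CBA replicates 1, 2 and 3. Every CTL library lay far above every 4CBA library. The mean was 84.3 ± 11.7 (SD, n = 3) in CTL and 1.94 ± 0.625 (SD, n = 3) in 4CBA, 43.4-fold lower, a log2 fold change of -4.87 ± 0.182 (adjusted p = 1.4e-06, limma). Among the genes called, only 5 had a more negative log2 fold change. From the size of the steps between low values, the 4CBA libraries hold about 28, 52 and 42 reads of this gene against 2259, 1891 and 1315 in CTL, so that the residual level is above 0 but rests on few reads.

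Cdkn1a (chr17:29090979-29100722) encodes p21, best known as a target of p53 that arrests the cycle after DNA damage and other stress. Its RPKM was 145.3, 129.0 and 131.7 in CTL and 154.9, 159.3 and 161.4 in 4CBA. The groups were apart, although the highest CTL library lay close to the lowest 4CBA library. The mean rose 1.17-fold, from 135.3 ± 8.72 to 158.5 ± 3.30 (SD, n = 3 each), with a log2 fold change of 0.23 ± 0.0565 (adjusted p = 0.0035, limma). The call was lost when libraries were scaled to the same median, where the log2 fold change was 0.11 (adjusted p = 0.083). That scaling moved the median log2 fold change of all genes from 0.06 to -0.04.

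Cdkn1b (chr6:134920401-134925525) encodes p27, which holds back CDK2 in resting cells. It stood at 81.9, 77.1 and 74.8 RPKM in CTL and at 71.1, 68.2 and 65.0 RPKM in 4CBA. The lowest CTL library was only just above the highest 4CBA library. The mean was 1.14-fold lower, 77.9 ± 3.59 against 68.1 ± 3.07 (SD, n = 3 each), with a log2 fold change of -0.19 ± 0.0561 (adjusted p = 0.00942, limma). Cdkn1c was thus the only Cip/Kip gene with a change of at least 1 on the log2 scale, and the summed RPKM of the 3 genes went from 297.6 ± 23.1 to 228.6 ± 1.34 (SD, n = 3 each).

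All 4 Ink4 genes fell. Cdkn2a (chr4:89274473-89294619) carries transcripts for 2 unrelated proteins, p16Ink4a and Arf, an activator of p53, which start at different first exons and share the exons that follow. The transcript kept in the deposited table starts at the upstream exon, that of Arf, and reads in the shared exons cannot be assigned to either protein. The RPKM of Cdkn2a was 210.4, 211.5 and 195.8 in CTL and 103.8, 104.1 and 109.4 in 4CBA. The groups were well apart, with little spread within either. The mean fell 1.95-fold, from 205.9 ± 8.76 to 105.8 ± 3.15 (SD, n = 3 each), with a log2 fold change of -0.95 ± 0.0527 (adjusted p = 1.72e-08, limma).

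Cdkn2b (chr4:89306289-89311032), next to Cdkn2a, encodes p15Ink4b, which is known to respond to TGF-beta. It was at 34.2, 35.5 and 29.2 RPKM in CTL and at 24.1, 23.6 and 21.9 RPKM in 4CBA. CTL replicate 3 was the lowest of its group and still above all 4CBA libraries. The mean fell 1.42-fold, from 33.0 ± 3.34 to 23.2 ± 1.16 (SD, n = 3 each), with a log2 fold change of -0.49 ± 0.0748 (adjusted p = 0.000114, limma).

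Cdkn2c (chr4:109660876-109666756) encodes p18Ink4c, which in mice is induced as preadipocytes differentiate. Its RPKM was 109.6, 112.6 and 112.6 in CTL and 54.4, 53.1 and 47.1 in 4CBA. The CTL libraries were nearly equal and all were above every 4CBA library. The mean fell 2.17-fold, from 111.6 ± 1.76 to 51.5 ± 3.90 (SD, n = 3 each), with a log2 fold change of -1.10 ± 0.0602 (adjusted p = 1.55e-08, limma).

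Cdkn2d (chr9:21288459-21291421) encodes p19Ink4d, the remaining inhibitor of CDK4 and CDK6. It stood at 75.2, 80.0 and 69.3 RPKM in CTL and at 34.8, 31.1 and 32.0 RPKM in 4CBA, again with no overlap. The mean fell 2.29-fold, from 74.8 ± 5.39 to 32.6 ± 1.90 (SD, n = 3 each), with a log2 fold change of -1.17 ± 0.0653 (adjusted p = 1.87e-08, limma). Of the Ink4 genes, 3 had log2 fold changes between -0.95 and -1.17, and Cdkn2b a smaller one. The summed RPKM of the 4 genes was 425.3 ± 16.8 in CTL and 213.1 ± 3.5 in 4CBA, 2.0-fold lower. This sum takes in Cdkn2a, whose reads may belong to Arf, so it may overstate the RNA of the inhibitors. The summed RPKM of Cdk4 and Cdk6, the kinases that Ink4 proteins bind, was 197.6 ± 9.2 in CTL and 184.6 ± 4.97 in 4CBA (SD, n = 3 each).

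**Figure D2:**
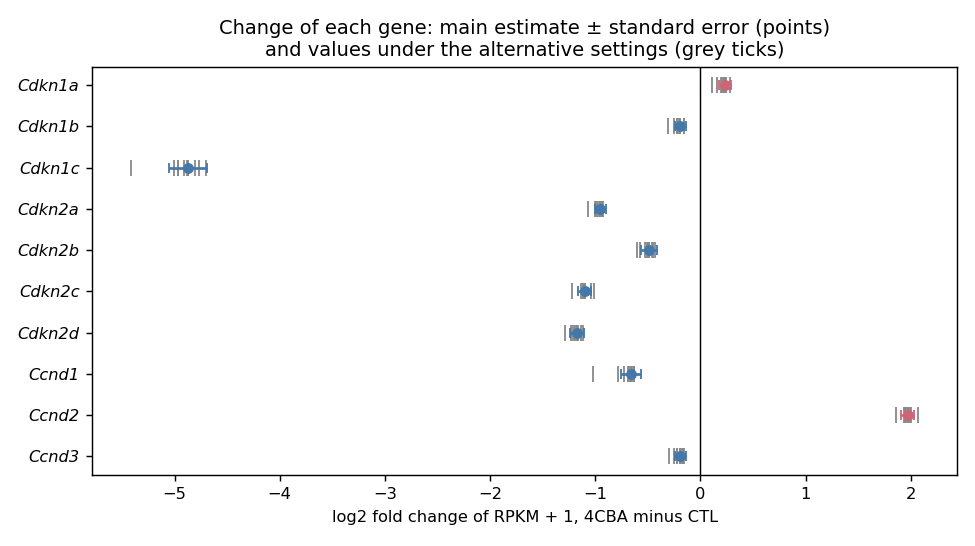
Log2 fold change of each of the 10 genes (4CBA minus CTL, on RPKM + 1), with points at the estimate of limma, bars at its standard error and grey ticks at the values under alternative processing. The estimates run from -4.87 for Cdkn1c to 1.97 for Ccnd2, and no tick crosses 0.

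The D-type cyclins moved in opposite directions. Ccnd2 (chr6:127125162-127152188), which encodes cyclin D2, a cyclin that mouse beta cells and granulosa cells need to divide, rose in every 4CBA library. Its RPKM was 9.62, 9.25 and 9.96 in CTL and 38.7, 41.0 and 42.0 in 4CBA. The spread within each group was small beside the gap between them. The mean rose 4.22-fold, from 9.61 ± 0.354 to 40.6 ± 1.66 (SD, n = 3 each), with a log2 fold change of 1.97 ± 0.0582 (adjusted p = 9.83e-11, limma). By log2 fold change it ranked at place 118 among the genes called higher.

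Ccnd1 (chr7:144929931-144939831) encodes cyclin D1, the D-type cyclin most often linked to growth factor signals, and was barely expressed. It was at 2.33, 2.22 and 2.14 RPKM in CTL and at 1.03, 1.16 and 0.972 RPKM in 4CBA, about 107, 100 and 76 reads against 44, 47 and 39 reads. The groups did not overlap. The mean fell 2.12-fold, from 2.23 ± 0.0956 to 1.05 ± 0.0983 (SD, n = 3 each), with a log2 fold change of -0.66 ± 0.0939 (adjusted p = 6.44e-05, limma). At this level the pseudocount matters, and with 0.1 in its place the log2 fold change was -1.02.

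Ccnd3 (chr17:47505051-47599689) encodes cyclin D3, which in mouse cells has been tied to adipocyte differentiation. Its RPKM was 38.1, 37.8 and 35.7 in CTL and 32.2, 31.5 and 34.1 in 4CBA. The groups were apart, but the lowest CTL library was close to the highest 4CBA library. The mean fell 1.14-fold, from 37.2 ± 1.33 to 32.6 ± 1.34 (SD, n = 3 each), with a log2 fold change of -0.19 ± 0.0555 (adjusted p = 0.0105, limma). Without 4CBA replicate 2 the log2 fold change was -0.16 and the call was lost (adjusted p = 0.0504).

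The make-up of the D-type cyclin RNA differed between the groups. Shares within a library do not depend on the scaling between libraries. Ccnd2 made up 19.2%, 18.8% and 20.8% of the summed RPKM of the 3 cyclins in CTL and 53.8%, 55.7% and 54.5% in 4CBA, so that it passed Ccnd3 as the most abundant of them. The share of Ccnd3 went from 75.8% ± 1.05 to 43.9% ± 1.07 and that of Ccnd1 from 4.55% ± 0.0944 to 1.42% ± 0.158 (SD, n = 3 each). Each of the 3 shares had groups that did not overlap, and each reached p = 0.1 in an exact two-sided permutation test (0.1 after Benjamini-Hochberg adjustment over the 3 shares), the smallest p that 3 against 3 libraries allow. The sum itself was 1.51-fold higher in 4CBA, 74.2 ± 2.55 against 49.1 ± 1.17 RPKM (SD, n = 3 each), since Ccnd2 gained more RPKM than the other 2 genes lost.

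Among the inhibitors, the share of Cdkn1a in the summed RPKM of the 7 genes went from 18.7% ± 0.883 in CTL to 35.9% ± 0.968 in 4CBA, and that of Cdkn1c from 11.6% ± 1.09 to 0.44% ± 0.143 (SD, n = 3 each). Cdkn1b went from 10.8% ± 0.172 to 15.4% ± 0.597 and Cdkn2b from 4.55% ± 0.313 to 5.25% ± 0.232, higher shares of a smaller sum. Cdkn2a, at 28.5% ± 0.544 and 23.9% ± 0.857, Cdkn2c, at 15.5% ± 0.923 and 11.7% ± 0.814, and Cdkn2d, at 10.3% ± 0.549 and 7.38% ± 0.399, made up smaller shares in 4CBA. All 7 shares had groups that did not overlap, again with p = 0.1 in the exact permutation test (0.1 after adjustment over the 7 shares). The sum of the 7 genes was 723 ± 33.5 RPKM in CTL and 442 ± 2.8 RPKM in 4CBA (SD, n = 3 each). Reads of Cdkn2a, which cannot be split between p16Ink4a and Arf, count in this sum and so in all 7 shares.

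**Figure D3:**
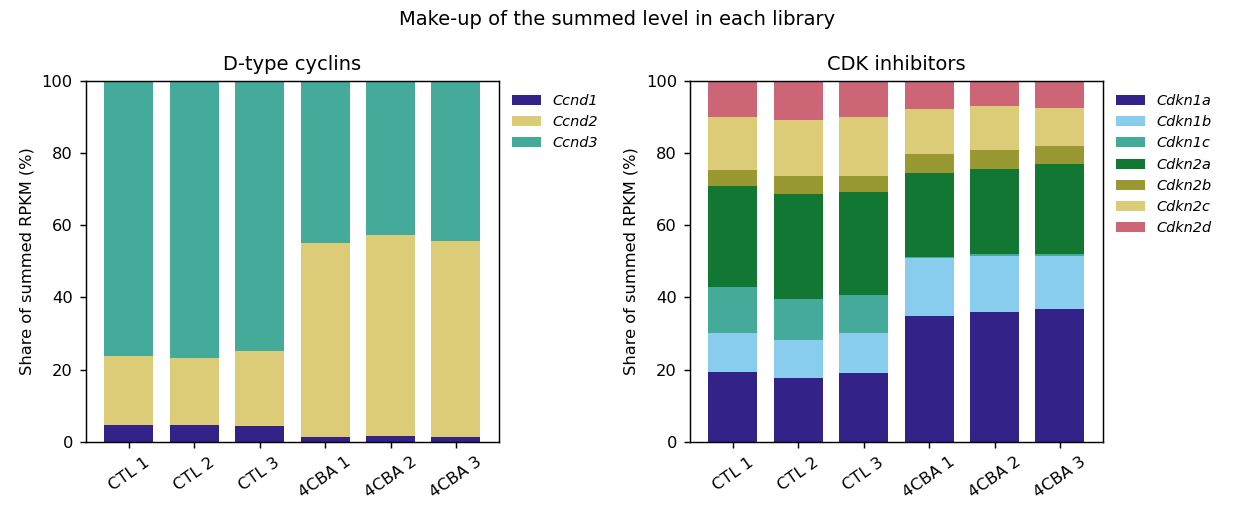
Share (%) of each D-type cyclin in their summed RPKM (left) and of each inhibitor in the summed RPKM of the 7 inhibitors (right), 1 bar for each library. Ccnd2 takes between 18.8% and 20.8% of the cyclin sum in CTL and between 53.8% and 55.7% in 4CBA, and the band of Cdkn1c all but vanishes from the 4CBA bars.

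The order of the genes by level changed with these shifts. In CTL it was Cdkn2a, Cdkn1a, Cdkn2c, Cdkn1c, Cdkn1b, Cdkn2d, Ccnd3, Cdkn2b, Ccnd2 and Ccnd1, and the ranges of the neighbours Cdkn1c and Cdkn1b and of Cdkn1b and Cdkn2d overlapped. In 4CBA it was Cdkn1a, Cdkn2a, Cdkn1b, Cdkn2c, Ccnd2, Cdkn2d, Ccnd3, Cdkn2b, Cdkn1c and Ccnd1, with overlapping ranges for Cdkn2d and Ccnd3 only. Cdkn1a thus took the place of Cdkn2a at the top of the order, and Cdkn1c moved from the upper part to just above Ccnd1. The level of Cdkn2a takes in reads that may belong to Arf, so its place is not that of an inhibitor RNA alone.

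The genes whose pattern over the 6 libraries was most like those of the 2 most changed members were found by the root mean square difference of mean-centred log2(RPKM + 1). For Cdkn1c these were C3, complement component 3, at 0.237, Orm1, an acute phase protein, at 0.282, and Cfd, the adipocyte product adipsin, at 0.319. For Ccnd2 they were Zyx, the focal adhesion protein zyxin, at 0.0426, Morn4 at 0.0489 and Slc7a5, a carrier of large neutral amino acids, at 0.0503. With 2 groups of closely alike libraries, such likeness largely means a like log2 fold change. These were -4.59, -4.89 and -4.59 for C3, Orm1 and Cfd, and 2.01, 1.91 and 1.91 for Zyx, Morn4 and Slc7a5.

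Position was also examined, with all genes within 200 kb of a member. There were 81 such genes, members themselves left out, and 52 of them were tested. Of these 22 were higher, 14 lower and 16 not called, with a median log2 fold change of 0.13. These counts lie near the shares over all genes tested, of which 68.4% were called, 38.4% higher and 30.0% lower. The same shares apply beside the counts for single members below. No neighbour of Cdkn1c fell by nearly as much as Cdkn1c did. Its 3 tested neighbours were Nap1l4, a histone chaperone gene, at -0.64 ± 0.0512 on the log2 scale (adjusted p = 4.23e-07), Cars, a tRNA synthetase gene, at 0.96 ± 0.0637 (adjusted p = 8.35e-08), and Tnfrsf22, a receptor gene, at 1.08 ± 0.0941 (adjusted p = 9.7e-07, limma). Of the imprinted genes beside it, Phlda2, Slc22a18 and Kcnq1 were at 0.236 RPKM or less in every library and were not tested. Kcnq1ot1 was at 0.348 RPKM or less and was not tested either. Its matched GENCODE transcript has 93092 bases, more than its RefSeq span (chr7:143213111-143296547), so its reads are only rough estimates. At the GENCODE length its RPKM stood for about 398, 302 and 234 reads in CTL and 225, 186 and 233 reads in 4CBA.

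Cdkn1b lies 3.57 kb from Lockd, a long noncoding RNA named for its place downstream of Cdkn1b, which was at 63.1, 69.7 and 67.1 RPKM in CTL and at 28.5, 25.6 and 24.9 RPKM in 4CBA. Lockd fell 2.53-fold (log2 fold change -1.31 ± 0.0634, adjusted p = 5.51e-09, limma), more than Cdkn1b itself. Cdkn1a lies 11.9 kb from Trp53cor1, the noncoding RNA known as lincRNA-p21, which was higher by 0.61 ± 0.123 on the log2 scale (adjusted p = 0.000838, limma) at a low level of 1.32 ± 0.215 RPKM in CTL and 2.57 ± 0.539 RPKM in 4CBA (SD, n = 3 each). Ccnd2 lies 15.6 kb from Tigar, a p53 target that restrains glycolysis, which rose 2.68-fold (log2 fold change 1.29 ± 0.0659, adjusted p = 8.73e-09, limma). Farther out, called neighbours went both ways. Against the member went Gprc5a (1.40), Dusp16 (0.73) and Crebl2 (0.36) near Cdkn1b, Ppil1 (-0.73) and Srsf3 (-0.40) near Cdkn1a, and D6Wsu163e (-0.39) near Ccnd2. With it went 2810454H06Rik (-0.83) near Cdkn1b and Kctd20 (0.37) near Cdkn1a. Of the tested neighbours 2 were higher and 2 lower for Cdkn1a, 3 higher and 2 lower for Cdkn1b, and 1 higher and 1 lower for Ccnd2. For Ccnd1 0 of 2 were higher and 1 lower, and for Ccnd3 3 of 13 were higher and 6 lower. Ano1, 178 kb from Ccnd1, fell 10.2-fold (log2 fold change -2.49 ± 0.085, adjusted p = 3.03e-10, limma), more than Ccnd1 itself. Near the Ink4 genes the pattern varied as well: Mtap, 93.4 kb from Cdkn2a, fell (-0.30 ± 0.0621, adjusted p = 0.00107), both tested neighbours of Cdkn2c rose, Faf1 by 0.56 and Rnf11 by 1.78, and of 13 tested neighbours of Cdkn2d 9 were higher and 0 lower. Of the 10 genes, 4 overlap another gene in the table, Ccnd1 with Oraov1, Ccnd2 with 9330179D12Rik, Ccnd3 with Bysl and Cdkn2b with Gm12610. No source used here says whether the counting used strand, so reads where such pairs overlap may not be told apart. Oraov1 was at 7.10 ± 0.629 RPKM in CTL and 7.90 ± 0.220 RPKM in 4CBA (SD, n = 3 each), above Ccnd1 in all libraries.

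**Figure D4:**
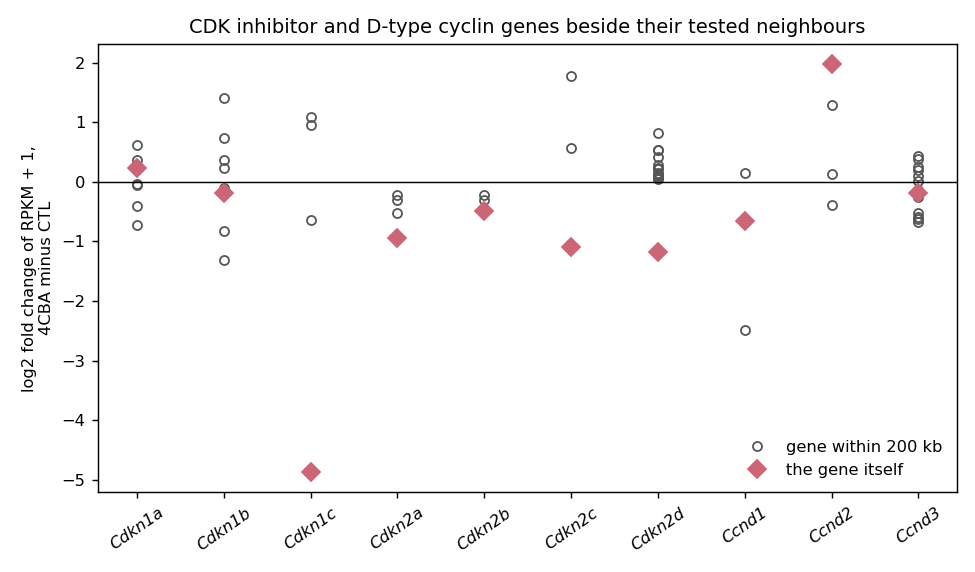
Log2 fold change (4CBA minus CTL, on RPKM + 1) of each of the 10 genes (red diamonds) and of the tested genes within 200 kb of it (open circles). Cdkn1c at -4.87 lies far below its 3 tested neighbours, which run from -0.64 to 1.08, whereas Ccnd2 at 1.97 has a neighbour at 1.29.

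The other genes of the pathway were taken from lists arranged by role, with 95 of 105 listed genes tested. Of these 26 were higher, 43 lower and 26 not called (median log2 fold change -0.11). Over all genes tested 68.4% were called, 38.4% higher and 30.0% lower, the shares to set beside the count of each list below. The kinases that D-type cyclins activate, and Cdk2, the partner of E-type cyclins, did not pass the threshold: Cdk4 had a log2 fold change of -0.10 ± 0.0532 (adjusted p = 0.129), Cdk6, near 1 RPKM, one of -0.12 ± 0.102 (adjusted p = 0.317) and Cdk2 one of 0.03 ± 0.0519 (adjusted p = 0.629, limma). Of 8 kinases and partners 1 was higher, Cdc37, a chaperone of kinases (0.22), and 2 were lower, the mitotic kinase Cdk1 (-0.96) and Ccnh (-0.34). With libraries scaled to the same median Cdk4 was called lower (-0.21, adjusted p = 0.00461), the estimate for Cdk2 turned to -0.09 (adjusted p = 0.138) and the call of Cdc37 was lost (adjusted p = 0.0957). Of the 8 other cyclins of the cell cycle that were tested, G-type cyclins included, 7 were lower and 0 higher, with a median of -0.74. The remaining 1, Ccng1, was not called (0.04 ± 0.0623, adjusted p = 0.604, limma). Ccne1, the partner of CDK2 at the start of DNA replication, was at -1.02 on the log2 scale, and the mitotic cyclin Ccnb1 at -1.13.

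Of the retinoblastoma family, targets of the D-type cyclin kinases, Rbl1 was higher (0.23) and Rbl2 lower (-0.23), while Rb1 had a log2 fold change of 0.15 ± 0.0652 that did not pass the threshold (adjusted p = 0.0666, limma). The call of Rbl1 was lost with libraries scaled to the same median (adjusted p = 0.0802). Of 10 E2F and DP factors 3 were higher and 3 lower (2 and 5 with that scaling), with E2f1 at 0.88, E2f4 at 0.47, E2f5 at -0.53 and E2f7 at -0.26. Of 20 replication and mitosis genes listed as driven by E2F factors, 4 were higher and 13 lower (median -0.35). With libraries scaled to the same median 3 were higher and 16 lower. Among the higher were the licensing factor Cdt1 (0.66) and the helicase subunit Mcm2 (0.59), and lowest were the mitotic genes Cdc20 (-1.63) and Plk1 (-1.38). How far E2F factors drive each of them in these cells was not tested.

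Of 6 genes that set the phosphorylation of the kinases, Pkmyt1, which inhibits CDK1, was higher by 0.91 and Cdc25b, which activates it, by 0.29, while 3 were lower, with Cdkn3 at -1.48 and Cdc25c at -0.33. Of 14 genes for the turnover of inhibitors and cyclins, 5 were higher and 3 lower, a balance that turned to 3 higher and 7 lower with libraries scaled to the same median. Of those called, Cul1 (0.60) and Fbxw7 (0.59), parts of ubiquitin ligases, were highest, and Rbx1 (-0.47) and Skp1a (-0.24) lowest. Skp2, which targets p27, had a log2 fold change of -0.18 (adjusted p = 0.0408, limma), a call that was lost in 6 of 12 alternatives.

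Regulators of the inhibitor and cyclin genes were more often higher than lower, 8 against 3 of 14, with a median of 0.35. Trp53, which encodes p53, was higher by 0.61 ± 0.0514 (adjusted p = 6.93e-07) and Myc by 0.35 ± 0.0597 (adjusted p = 0.000235, limma). Whether p53 had a part in the changes of any gene here was not tested. Plagl1 (1.15) and the Polycomb gene Cbx7 (0.84), a repressor of Cdkn2a, had the largest rises, and Foxo1 (-0.45) and Id3 (-0.33) the largest falls. Since Cdkn1c is imprinted, other imprinted genes were counted: of 22 listed 13 were tested, 3 higher and 8 lower, with the largest falls in Dlk1 (-2.39) and H19 (-1.47) and the largest rises in Plagl1 (1.15) and Grb10 (0.46), all by less than Cdkn1c.

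**Figure D5:**
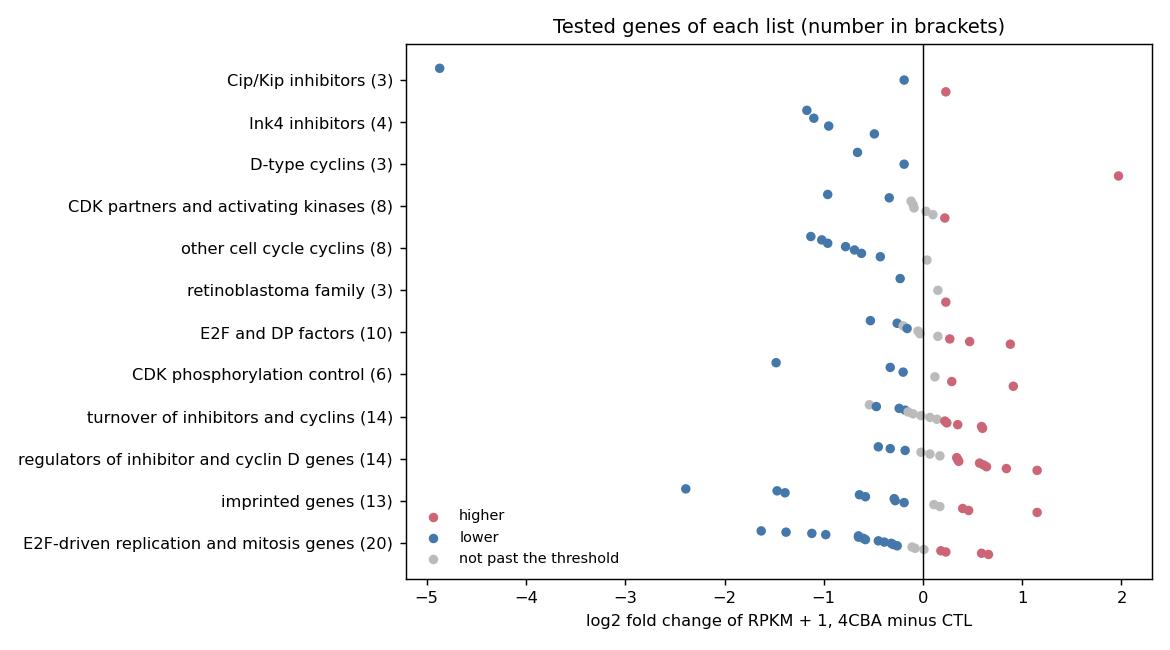
Log2 fold change (4CBA minus CTL, on RPKM + 1) of every tested gene of each list, red where higher, blue where lower and grey where not past the threshold. All 4 Ink4 genes and 7 of 8 other cyclins lie left of 0, and the point farthest left is Cdkn1c at -4.87.

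The libraries were of like depth, about 9420000 to 12300000 reads, and correlated across genes with r of at least 0.992 inside a group and at most 0.917 across groups. Adipocyte markers were abundant in all libraries, as the labels imply, with a summed RPKM over 8 genes of 10800 to 11400 in CTL and 5520 to 6860 in 4CBA. Most of this sum was Fabp4, with a mean of 8620 RPKM in CTL and 4846 RPKM in 4CBA. Of the 8 genes 6 were lower and 0 higher, and Lpl and Cidec were not called. Of 6 brown adipocyte markers 5 were tested, 4 lower and 1 higher, with sums of 234 to 258 RPKM in CTL and at most 54.0 RPKM in 4CBA. Ucp1 was at 34.6 ± 3.75 RPKM in CTL and 2.13 ± 0.231 RPKM in 4CBA (SD, n = 3 each). The higher one was Elovl3, at 1.95 ± 0.284 RPKM in CTL and 6.59 ± 0.453 RPKM in 4CBA (SD, n = 3 each). Of 9 preadipocyte and fibroblast markers 8 were lower and 0 higher, with sums of 419 to 474 and 200 to 221 RPKM. Among 7 macrophage markers, with sums of 2.57 to 3.82 and 46.1 to 51.6 RPKM, Ptprc, Adgre1 and Itgam were at 0 in all libraries while Cd68, a lysosomal protein, rose from 2.28 ± 0.637 to 49.2 ± 2.85 RPKM (SD, n = 3 each). None of 5 endothelial markers passed the filter. The 6 muscle markers had sums of 5.88 to 6.26 RPKM in CTL and 10.2 to 11.5 RPKM in 4CBA. Acta1 was higher, at 0.276 ± 0.0583 and 4.43 ± 0.806 RPKM (SD, n = 3 each), while Myod1, Myog and Myh3 were at 0. Des, most of the CTL sum, was at 5.84 ± 0.157 and 6.35 ± 0.363 RPKM (SD, n = 3 each) and was not called. Most tested markers of fat cells and of their precursors thus fell along with Cdkn1c and the Ink4 genes, and their part in those changes was not tested. In bulk RNA fewer cells of a type and less RNA per cell cannot be told apart.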

How the data were processed

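Messenger RNA of 3 CTL and 3 4CBA libraries was analysed, with groups and replicate numbers taken from the sample labels. The authors aligned reads to mm10 with STAR, used HOMER to count them over the exons of a single RefSeq isoform for each gene, and deposited RPKM values of 24537 genes. Per its header that table was made from 24 libraries at once, and 6 of them are given as columns. A second deposited table holds log2 values of these 6 libraries, used only as an alternative, and the fold changes and p-values of the authors' DESeq2 comparison, which were not used. No source used here gives the versions of these tools. The tables keep different RefSeq isoforms of some genes, Cdkn1c and Cdkn2c included, and were matched by symbol.

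Since the values are RPKM, limma 3.58.1 in R 4.3.3 was run on log2(RPKM + 1), with robust estimation and a prior spread that follows the mean. Genes entered at an RPKM of 0.5 or more in 3 or more libraries, which left 12659, and the Benjamini-Hochberg adjustment covered all of these. The procedure was tested on simulated data. The 10 genes and the lists were chosen with earlier results of these data known. Named were all 10 genes, neighbours within 200 kb, 9 core genes (Cdk4, Cdk6, Cdk2, Rb1, E2f1, Ccne1, Skp2, Trp53, Myc) and, from each other list, the 2 called genes that rose most and the 2 that fell most, provided that the mean RPKM of the higher group reached 1. Which neighbours and marker genes to name was chosen after their values were seen, as was Ccng1. Shares were compared with exact permutation tests in scipy 1.17.1. Low RPKM values move in steps of single reads. With the lengths of GENCODE transcripts matched by RefSeq accession, these gave the depth of each library and the reads behind a gene. Alternatives were a pseudocount of 0.1, no filter, a filter at an RPKM of 5, the replicate block, scaling of all libraries to a common median, the authors' log2 values and each library left out in turn. Python 3.11.15, numpy 2.4.6, pandas 2.3.3 and matplotlib 3.10.9 were also used.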

Additional observations from a re-analysis of the deposited data

How the results depend on the processing

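Of 119 log2 fold changes of the 10 genes under alternatives, 117 kept direction and call. The exceptions were Cdkn1a with libraries scaled to the same median (0.11, adjusted p = 0.083) and Ccnd3 without 4CBA replicate 2 (-0.16, adjusted p = 0.0504), both against limma with Benjamini-Hochberg adjustment, and the cause was not tested. Over all alternatives Cdkn1c ran from -5.41 to -4.70, Ccnd2 from 1.86 to 2.07, Cdkn2a from -1.07 to -0.93, Cdkn2b from -0.60 to -0.43, Cdkn2c from -1.22 to -1.01, Cdkn2d from -1.29 to -1.12, Cdkn1b from -0.31 to -0.16 and Ccnd1 from -1.02 to -0.63. Ccnd1 was not tested with the filter at an RPKM of 5. For 37 other named genes, 428 of 442 results were the same, 8 lost a call, 4 gained one and 2 reversed, both for Cdk2, which has 0.03 and turned to -0.09 with libraries scaled to the same median and to -0.03 with the authors' log2 values. With the authors' log2 values Cdk4 (-0.16) and Cdk6 (-0.25) were called and 6 of the kinases and partners in place of 3, with scaling 1 retinoblastoma family gene in place of 2, and without CTL replicate 1, 5 turnover genes in place of 8. The replicate numbers did not pair the libraries, since deviations of same-numbered libraries correlated with r of -0.0674, -0.0329 and -0.0274. With the replicate block all 10 genes were still called, with Cdkn1a at 0.23 (adjusted p = 0.00872) and Ccnd3 at -0.19 (adjusted p = 0.0259), 65 pathway genes were called in place of 69, and 8499 genes in place of 8664, while Skp2 lost its call (adjusted p = 0.0628). Depth limits Ccnd1 and, in 4CBA, Cdkn1c, which rest on few reads.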
